A study of Homo sapiens with 6 samples.

Results

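The 48 genes described here encode the machinery of mitosis: the cyclins and phosphatases that switch on CDK1, the chromosomal passenger complex, the spindle checkpoint, centromere and kinetochore proteins, spindle motors and microtubule-binding proteins, and the factors that end mitosis. They were taken by symbol from the count table, where all 48 listed symbols were found among 26485 rows. The rule itself uses no measured value, but the list was chosen with earlier results of these data known. The question was how evenly their transcripts held between AQP1 knockout and wild-type cells of HuCCT1, an established human bile duct cancer line. AQP1 codes for aquaporin-1, a channel for water. The groups are 3 libraries (a, b and c) of AQP1 KO clone 22 and 3 libraries (a, b and c) of WT CRISPR clone 1, all in DMEM-F12 medium with fetal serum. Each genotype is a single clone, so genotype and clone cannot be told apart. The labels leave unsaid whether a letter stands for a culture of its own, so the p-values reflect only how much these libraries vary, perhaps for technical reasons.

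Transcripts of mitotic genes are made late in the cell cycle. They are repressed in resting cells by the DREAM complex and switched on in G2 by B-MYB and FOXM1, which act largely through a promoter element called the cell cycle genes homology region (CHR) and through CCAAT boxes bound by NF-Y. Their proteins then assemble the spindle, attach chromosomes at kinetochores, hold anaphase back until every chromosome is attached, and are mostly destroyed through the anaphase-promoting complex. In bulk RNA, fewer cells in G2 or mitosis and less RNA per cell cannot be told apart.

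The libraries held 40827165, 40905209 and 36925338 counts in KO and 40536085, 41317113 and 41724447 in WT. AQP1 itself had 10, 7 and 7 counts in the KO libraries and 2, 8 and 10 in the WT libraries, too few for the filter on low counts, and these counts do not check the genotype. Of 8 markers of biliary epithelium, 7 were lower in KO, with summed levels of 2641 to 2725 counts per 1000000 counts (CPM) in KO and 6444 to 6501 CPM in WT. Of 7 fibroblast markers, 5 were tested and 4 were higher in KO, at 35.0 to 37.4 CPM in KO and 16.1 to 18.3 CPM in WT, with COL1A2 at 0 in all KO libraries. Beside these counts, 37.1% of all genes tested were higher in KO and 37.2% lower. Immune markers summed to 1.30 to 2.17 CPM in KO and 0.554 to 0.567 CPM in WT, with PTPRC at 0 in all 6 libraries. Summed endothelial markers stood at 1.88 to 2.84 CPM in KO and 1.73 to 2.17 CPM in WT. Hepatocyte markers summed to 0.0482 to 0.361 CPM in KO and 0.195 to 0.247 CPM in WT, and neural markers to at most 0.0482 CPM in KO and to 0 in WT. Whether these marker differences play a part in the values of the mitotic genes was not tested.

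As a group the mitotic genes held their share of the library while single members moved in both directions. Their summed level was 12239.8, 12339 and 12229 CPM in KO libraries a, b and c, against 12453, 12367 and 12297 CPM in WT libraries. The KO over WT ratio of these sums was 0.992. With library totals as the only scaling it was 1.03, so the sums give no stable direction. The genes took 1.25% of the counts in each KO library and 1.21 to 1.22% in the WT libraries. CPM here are scaled by TMM factors, so that levels and fold changes share a scale, and all fold changes are KO over WT on the log2 scale.

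Of the 48 genes, all of which passed the filter on low counts, 23 were higher in KO, 17 were lower and 8 did not pass an adjusted p of 0.05 in edgeR's quasi-likelihood test. Over all 14405 genes tested, 37.1% were higher and 37.2% lower, 74.4% in either direction, so the members' count of calls is not far from the background. The sizes were smaller than the background. The median log2 fold change of the members was 0.05 with quartiles of -0.26 and 0.35, and the median absolute value was 0.32, against 0.46 over all genes tested. Only 9 members, 18.8%, were past 1.5-fold in either direction, against 41.7% of all genes tested, and 1 member was past 2-fold, against 23.4%. For 38 members, 79.2%, the 95% interval of the change lay inside 1.5-fold, against 42.4% of all genes tested. Most members are abundant and therefore precisely measured. The same was therefore counted over the 10009 tested genes whose mean level lies in the members' range. That range is wide, from SPC25 (6.60 CPM in KO, 5.96 CPM in WT) to TOP2A (1156 CPM in KO, 1093 CPM in WT). Most members lie far above its lower end, so this set does not match their levels or precision. Of the 10009 genes, 36.4% were higher in KO and 44.6% lower, beside 47.9% and 35.4% of the members. In the same level range, 32.1% were past 1.5-fold, 57.9% had an interval inside 1.5-fold and the median absolute change was 0.38. The libraries of KO and WT did not overlap for 40 of the 48 members, against 11070 of all 14405 genes tested (76.8%). In the members' level range they did not overlap for 8288 of 10009 genes, a share close to that of the members. Within a group the members varied little, with a median coefficient of variation (SD over mean, n = 3 each) of 2.23% in KO and 2.08% in WT, and with a highest one of 5.65% in KO and 11.8% in WT. These cover the group means that are given without an SD.

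**Figure D1:**
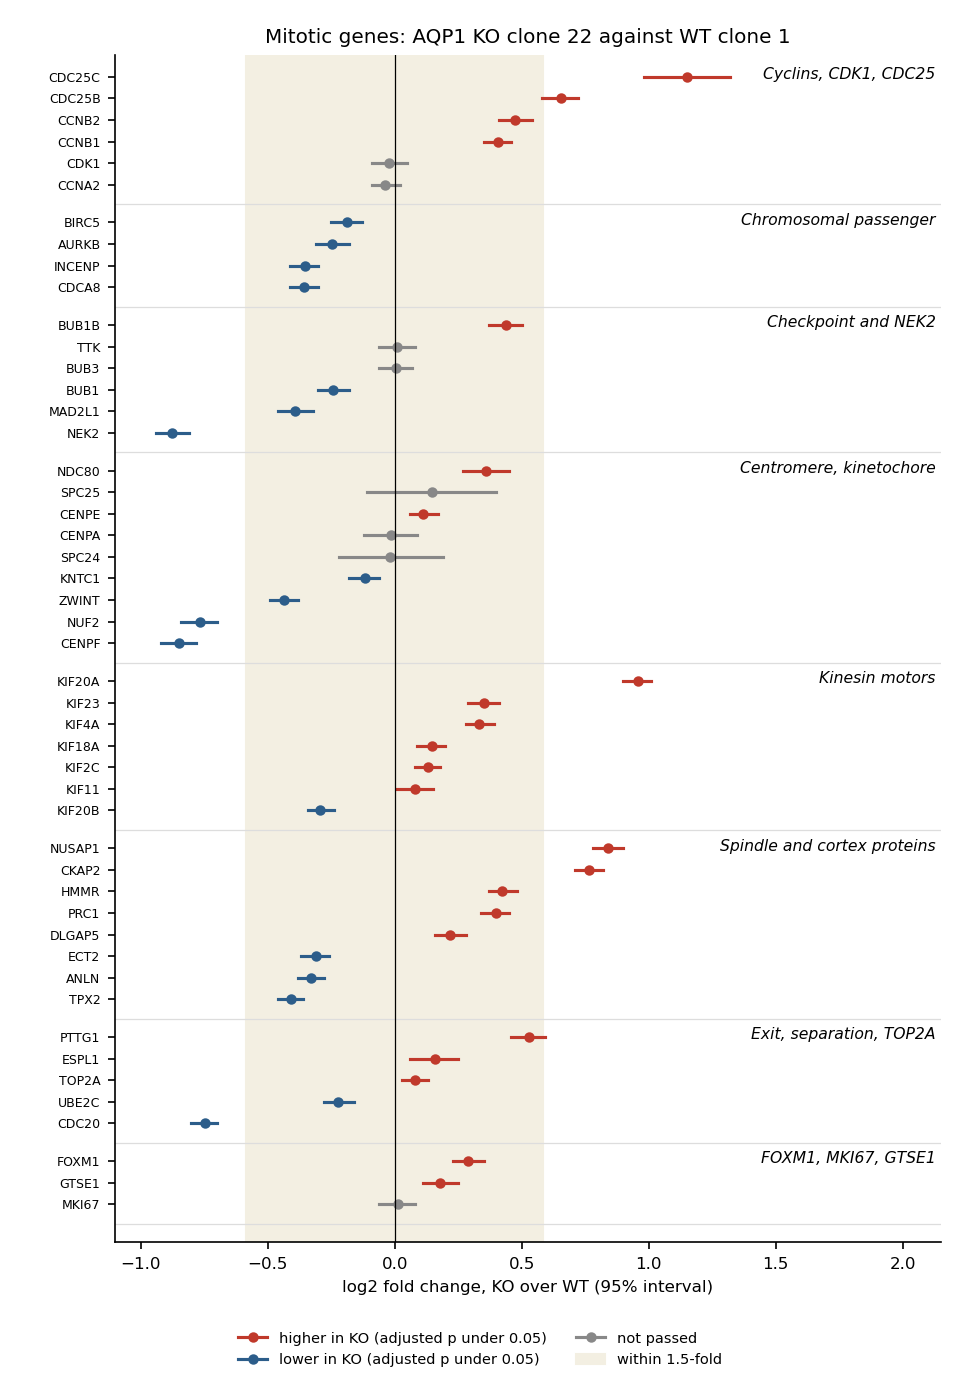
Log2 fold change of each of the 48 mitotic genes, KO over WT, with its 95% interval, by role; the x axis is log2 and the shaded band is 1.5-fold in either direction. Red points were higher in KO, blue points lower and grey points did not pass an adjusted p of 0.05. In total 23 genes are red, 17 blue and 8 grey, and 38 intervals lie wholly inside the band.

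**Figure D2:**
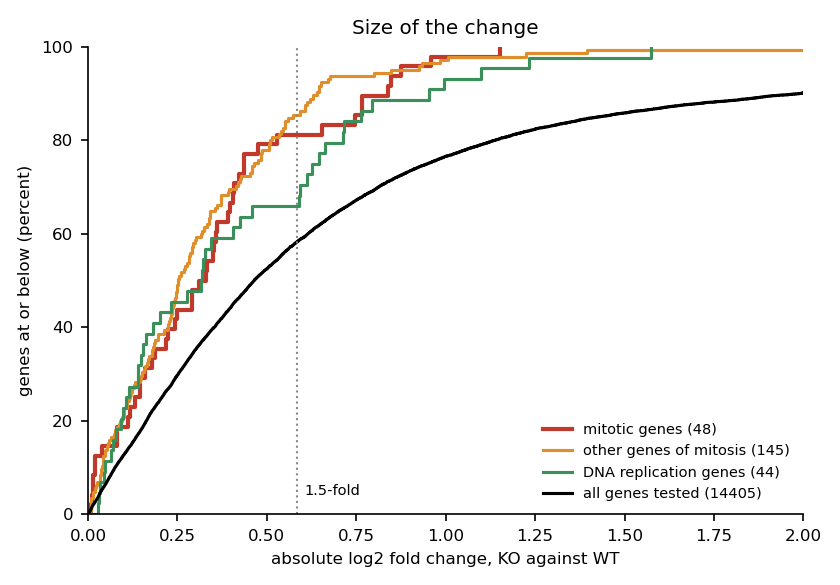
Cumulative share of genes (percent) by absolute log2 fold change, KO against WT, for the 48 mitotic genes, 145 other genes of mitosis, 44 DNA replication genes and all 14405 genes tested; the axis ends at 2. The curve of the mitotic genes lies above that of all genes, with 18.8% of the 48 genes past the dotted line at 1.5-fold, against 41.7% of all genes tested.

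The promoters of the genes carry the elements named above, and a few are shown because they belong to the genes with the largest changes or to the central cyclin. Promoters from RefSeq (GRCh38.p14, 250 bases before to 50 after the start) were matched for 41 of the 48 genes in the table used. The CHR was searched as TTTGAA or TTCGAA and the CCAAT box as CCAAT, each on both strands, so that matches also read TTCAAA and ATTGG. CHR and CCAAT letters overlapped each other in 2 of the members' promoters. A CHR was found in 29 of the 41 promoters, 70.7%, against 11.2% of 10556 promoters of tested genes. A CCAAT box was found in 32, 78.0%, against 36.3%, and both were found in 25, 61.0%, against 4.76%. Promoters of 36 DNA replication genes held a CHR in 5.56% and a CCAAT box in 58.3%. A CHR was present in 14 of 22 promoters of members higher in KO, 11 of 13 of members lower in KO and 4 of 6 of members that did not pass. So the CHR stood in promoters of genes that went up, went down or did neither.

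The 6 promoters below are written 5′ to 3′ on the gene's strand, with CHR and CCAAT letters in capitals, and a match is a description of letters, not a shown binding site. CDC20 (plus strand, chr1:43358731-43359030), lower in KO, holds 2 CHR and 2 CCAAT matches and was added after its motifs were seen. CENPF (plus strand, chr1:214602945-214603244), lower in KO, holds 1 CHR and 4 CCAAT matches. NEK2 (minus strand, chr1:211675572-211675871), lower in KO, KIF20A (plus strand, chr5:138178862-138179161) and CCNB1 (plus strand, chr5:69166900-69167199), both higher in KO, each hold 2 CCAAT matches and no CHR with these letters. CDC25C (minus strand, chr5:138338306-138338605), the largest rise, holds neither set of letters in this window. The window was set at the outer end of the RefSeq gene, so a start further inside the gene would not be covered. In the shares above, this promoter counts as holding neither.
CDC20: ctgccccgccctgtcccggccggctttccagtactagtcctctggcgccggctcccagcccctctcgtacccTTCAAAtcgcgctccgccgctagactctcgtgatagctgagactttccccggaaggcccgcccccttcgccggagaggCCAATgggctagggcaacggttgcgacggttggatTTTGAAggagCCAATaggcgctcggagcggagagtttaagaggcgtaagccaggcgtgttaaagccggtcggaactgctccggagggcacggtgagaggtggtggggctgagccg
CENPF: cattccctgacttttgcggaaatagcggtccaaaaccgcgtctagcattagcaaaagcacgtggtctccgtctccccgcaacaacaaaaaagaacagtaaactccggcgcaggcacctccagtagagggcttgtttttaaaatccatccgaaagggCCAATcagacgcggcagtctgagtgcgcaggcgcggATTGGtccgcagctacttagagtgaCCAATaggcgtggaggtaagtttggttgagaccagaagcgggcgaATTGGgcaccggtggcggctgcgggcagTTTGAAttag
NEK2: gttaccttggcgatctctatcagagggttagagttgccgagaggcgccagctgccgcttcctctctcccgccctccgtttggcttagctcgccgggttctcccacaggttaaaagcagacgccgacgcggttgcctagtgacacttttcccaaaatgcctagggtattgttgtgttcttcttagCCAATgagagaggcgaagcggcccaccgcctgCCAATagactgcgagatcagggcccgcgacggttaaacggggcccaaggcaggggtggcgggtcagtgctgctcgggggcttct
KIF20A: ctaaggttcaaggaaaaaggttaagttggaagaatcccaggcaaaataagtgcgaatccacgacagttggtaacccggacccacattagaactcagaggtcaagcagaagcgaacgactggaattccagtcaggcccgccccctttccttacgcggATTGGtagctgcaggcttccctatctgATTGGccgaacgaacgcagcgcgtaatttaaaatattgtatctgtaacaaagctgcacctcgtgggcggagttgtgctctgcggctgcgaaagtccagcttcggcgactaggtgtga
CCNB1: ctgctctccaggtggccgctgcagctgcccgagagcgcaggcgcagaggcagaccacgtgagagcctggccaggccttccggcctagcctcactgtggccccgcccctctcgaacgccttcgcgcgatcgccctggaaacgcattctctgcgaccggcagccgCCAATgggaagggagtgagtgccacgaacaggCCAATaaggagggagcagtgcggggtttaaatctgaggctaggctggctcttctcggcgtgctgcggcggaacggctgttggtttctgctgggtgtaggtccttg
CDC25C: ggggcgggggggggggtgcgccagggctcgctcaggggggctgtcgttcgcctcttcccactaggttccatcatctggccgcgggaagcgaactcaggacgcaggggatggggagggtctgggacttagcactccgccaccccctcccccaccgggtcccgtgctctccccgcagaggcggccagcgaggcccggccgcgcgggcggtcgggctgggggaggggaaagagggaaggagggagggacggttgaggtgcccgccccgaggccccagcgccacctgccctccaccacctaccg

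Among the genes of the mitotic switch, CCNB1, CCNB2, CDC25B and CDC25C were higher in KO, while CDK1 and CCNA2 showed no detectable difference. The third CDC25 gene, CDC25A, which is not among the 48 and is named here after its values were seen, was lower in KO, at 32.9 ± 2.25 CPM in KO and 52.6 ± 3.46 CPM in WT (SD, n = 3 each), a log2 fold change of -0.68. CDK1 (chr10:60778331-60794852), the kinase that drives entry into mitosis, had 265, 248 and 252 CPM in KO libraries a, b and c, against 256, 269 and 251 CPM in WT libraries. The KO and WT libraries overlapped, and the log2 fold change of CDK1 was -0.02 with a 95% interval of -0.09 to 0.05 (edgeR adjusted p = 0.584). CCNA2, cyclin A2 of S and G2 phase, averaged 249 ± 4.07 CPM in KO and 256 ± 4.66 CPM in WT (SD, n = 3 each), a log2 fold change of -0.04 (edgeR adjusted p = 0.183). CCNA2 overlaps EXOSC9 by 578 bases, and EXOSC9 averaged 88.1 CPM in KO and 97.0 CPM in WT. Both values turn positive with library totals as the only scaling, at 0.03 for CDK1 and 0.02 for CCNA2, and again do not pass.

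CCNB1 (chr5:69167150-69178245), the cyclin B1 that activates CDK1 at mitotic entry, had 401, 398 and 380.2 CPM in KO libraries, against 296, 294 and 301 CPM in WT libraries. All KO libraries lay above all WT libraries, with a log2 fold change of 0.41, an SE of 0.027 and an edgeR adjusted p of 8.13e-09. CCNB2, the related cyclin B2, rose by a similar size, to 133 ± 4.68 CPM in KO against 95.6 ± 1.07 CPM in WT (SD, n = 3 each), a log2 fold change of 0.48. CDC25B, a phosphatase that removes inhibitory phosphates from CDK1, averaged 238 ± 7.77 CPM in KO and 151 ± 5.31 CPM in WT (SD, n = 3 each), a log2 fold change of 0.65. CDC25C (chr5:138285265-138338355), the related phosphatase of mitotic entry, had the largest rise of the 48 genes. Its levels were 32.5, 31.3 and 29.2 CPM in KO libraries, against 15.8, 12.9 and 13.1 CPM in WT libraries. Every KO library had more than 1.5 times the level of any WT library, and the fitted change was 2.22-fold (log2 fold change 1.15, SE 0.079, edgeR adjusted p = 1.21e-08). CDC25C overlaps FAM53C by 799 bases, and FAM53C averaged 84.2 CPM in KO and 40.5 CPM in WT. Whether counting used strand is not stated, so reads of the overlap cannot be assigned with certainty.

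The chromosomal passenger complex corrects faulty kinetochore attachments and later drives cytokinesis. All 4 of its genes fell in KO, beside 37.2% lower over all genes tested and 44.6% in the members' level range. No gene of the complex reached 1.5-fold. AURKB, its kinase, had 83.4, 84.3 and 88.4 CPM in KO libraries, against 101, 100.2 and 103 CPM in WT libraries (log2 fold change -0.25, edgeR adjusted p = 5.48e-06). INCENP, the scaffold, had 177, 184 and 182 CPM in KO libraries, against 233, 227 and 234 CPM in WT libraries (log2 fold change -0.35, edgeR adjusted p = 2.09e-08). For both genes every KO library lay below every WT library. BIRC5, which encodes survivin, had 171, 178 and 169 CPM in KO libraries, against 195, 202 and 194 CPM in WT libraries (log2 fold change -0.19, edgeR adjusted p = 3.63e-05). CDCA8, which encodes borealin, had 127, 132 and 131 CPM in KO libraries, against 166, 167 and 166 CPM in WT libraries (log2 fold change -0.36, edgeR adjusted p = 1.78e-08). The summed level of the 4 genes was 558, 578 and 570.4 CPM in KO libraries against 694, 696 and 697 CPM in WT libraries, a ratio of 0.818, and 0.849 with library totals alone. Tested genes within 5 Mb had median log2 fold changes of 0.09 around AURKB and -0.44 around INCENP. Around BIRC5 the median was -0.43 and around CDCA8 -0.07.

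The spindle checkpoint, which delays anaphase until chromosomes are attached, did not move as a unit. Of its 5 genes and the mitotic kinase gene NEK2, 1 rose, 3 fell and 2 did not pass. The background shares were 37.1% higher and 37.2% lower over all genes tested, and 36.4% and 44.6% in the members' level range. With both directions that common, such a split does not set these genes apart from the background. BUB3, an adaptor that brings BUB1 and BUBR1 to kinetochores, had 276, 281 and 283 CPM in KO libraries, against 278, 268 and 291 CPM in WT libraries. TTK, which encodes the checkpoint kinase MPS1, had 119, 125 and 114 CPM in KO libraries, against 119, 119.7 and 116 CPM in WT libraries. These 2 genes had the smallest changes of all 48, with overlapping libraries and log2 fold changes of 0.01 each, and with 95% intervals of -0.06 to 0.07 for BUB3 and -0.06 to 0.08 for TTK. BUB1, the checkpoint kinase, averaged 243 ± 6.18 CPM in KO and 288 ± 6.23 CPM in WT, a log2 fold change of -0.24. BUB1B, which encodes its relative BUBR1, averaged 176 ± 3.60 CPM in KO and 130.1 ± 4.56 CPM in WT, a log2 fold change of 0.44 (SD, n = 3 each for both genes). The related BUB1 and BUB1B thus moved in opposite directions. MAD2L1, whose product MAD2 binds and blocks CDC20, averaged 118 ± 3.72 CPM in KO and 155 ± 5.66 CPM in WT (SD, n = 3 each), a log2 fold change of -0.39.

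NEK2 (chr1:211658256-211675621), a kinase that separates centrosomes before mitosis, had the largest fall of the 48 genes. Its levels were 86.6, 87.1 and 84.0 CPM in KO libraries, against 158, 164 and 152 CPM in WT libraries. The groups were far apart relative to their spread, at 0.545 times the WT level (log2 fold change -0.88, SE 0.032, edgeR adjusted p = 1.43e-11).

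Among 9 centromere and kinetochore genes, 2 (22.2%) rose, 4 (44.4%) fell and 3 did not pass. Over all genes tested 37.1% were higher and 37.2% lower, and in the members' level range 36.4% were higher and 44.6% lower. The 4 genes of the NDC80 complex, the main microtubule coupler of the kinetochore, did not move together. NDC80, its namesake subunit, had 94.8, 95.4 and 89.2 CPM in KO libraries, against 76.6, 68.0 and 73.2 CPM in WT libraries (log2 fold change 0.36, SE 0.044, edgeR adjusted p = 4.72e-06). NUF2 (chr1:163321954-163355759), its direct partner, had 86.5, 82.2 and 85.2 CPM in KO libraries, against 149, 143 and 139.9 CPM in WT libraries (log2 fold change -0.77, SE 0.032, edgeR adjusted p = 5.73e-11). NDC80 and NUF2 pair in a fixed dimer, and their transcripts moved in opposite directions with no overlap between the groups for either gene. SPC24, of the other dimer, had 10.0, 11.2 and 10.7 CPM in KO libraries, against 11.9, 10.4 and 10.1 CPM in WT libraries. SPC25, the partner of SPC24, had 6.28, 6.50 and 7.01 CPM in KO libraries, against 5.74, 5.82 and 6.32 CPM in WT libraries. Both had overlapping libraries and did not pass, with a 95% interval of the log2 fold change of -0.22 to 0.19 for SPC24 and -0.11 to 0.40 for SPC25. SPC25 overlaps NOSTRIN by 3994 bases, and NOSTRIN averaged 2.52 CPM in KO and 2.38 CPM in WT, so without a stated strand setting part of the low SPC25 counts may belong to it.

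Per kilobase of merged exon (GENCODE v29), the level of SPC24 was 4.60 CPM in KO and 4.66 CPM in WT and that of SPC25 was 4.87 CPM in KO and 4.40 CPM in WT. NDC80 stood at 42.9 CPM per kilobase in KO and 33.4 in WT, and NUF2 at 41.8 in KO and 71.2 in WT. SPC24 and SPC25 were the lowest of the 48 genes in KO on this scale, and the same pair was lowest in WT. The highest in KO were TOP2A, at 201 CPM per kilobase in KO and 189.8 in WT, and PTTG1, at 196 in KO and 136 in WT. In WT the highest were ANLN, at 179.6 CPM per kilobase in KO and 226 in WT, and TPX2, at 167 in KO and 222 in WT.

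CENPF (chr1:214603195-214664571), a large protein of the outer kinetochore and nuclear envelope, fell beside NEK2 in size. It had 312, 327 and 304 CPM in KO libraries, against 586, 566 and 545 CPM in WT libraries (log2 fold change -0.85, SE 0.033, edgeR adjusted p = 2.81e-11). ZWINT, a kinetochore adaptor, averaged 201 ± 4.39 CPM in KO and 272 ± 4.42 CPM in WT, a log2 fold change of -0.44. The shifts of the remaining kinetochore genes were slight. CENPE, a kinesin that moves chromosomes to the spindle equator, averaged 282 ± 5.50 CPM in KO and 261 ± 4.71 CPM in WT, a log2 fold change of 0.11 (SD, n = 3 each). KNTC1, which recruits dynein, averaged 111 ± 0.651 CPM in KO and 120.0 ± 3.35 CPM in WT, a log2 fold change of -0.12. That call was lost with library totals alone, at -0.06 with an edgeR adjusted p of 0.0559. CENPA, the histone variant that marks centromeres, averaged 58.1 ± 1.81 CPM in KO and 58.7 ± 3.0 CPM in WT and did not pass, with a log2 fold change of -0.01 that was 0.00 with RLE factors and 0.04 with library totals alone.

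Of 7 kinesin genes grouped here as spindle motors, 6 were higher in KO and 1 lower. Over all genes tested, 37.1% were higher and 37.2% lower. Kinesin genes outside the 48 were mixed. KIF14, KIF15 and KIF18B were lower in KO, with log2 fold changes of -0.55, -0.17 and -0.80. KIF22 (0.18) and the poorly measured KIFC1 (2.91) were higher, and KIF3B and KIF24 did not pass. KIF20A (chr5:138179112-138187723), a kinesin of the central spindle needed for cytokinesis, had 266, 264 and 255 CPM in KO libraries, against 134, 135 and 134 CPM in WT libraries. It was nearly doubled, at 1.94-fold (log2 fold change 0.96, SE 0.026, edgeR adjusted p = 6.69e-13), with tight libraries in both groups. It overlaps CDC23 by 74 bases. KIF23, the motor of the centralspindlin complex, averaged 298 ± 10.2 CPM in KO and 234 ± 4.09 CPM in WT, and KIF4A, a chromosome-bound kinesin, averaged 148 CPM in KO and 118 CPM in WT, log2 fold changes of 0.35 and 0.33. KIF18A, which dampens chromosome movements, and KIF2C, a microtubule depolymerase, rose slightly, with log2 fold changes of 0.15 and 0.13. KIF20B, a kinesin of late cytokinesis, was the exception among the 7, with 247 CPM in KO and 303 CPM in WT, a log2 fold change of -0.29. KIF11, the motor that makes the spindle bipolar, averaged 251 ± 3.06 CPM in KO and 237 ± 11.9 CPM in WT, a log2 fold change of 0.08 (edgeR adjusted p = 0.0381). The KIF11 call rested on single libraries: the adjusted p was 0.0715 without KO library a, 0.0614 without KO library b and 0.244 without WT library c, where the log2 fold change was 0.04.

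Among 8 genes of spindle and cortex proteins, 5 (62.5%) rose and 3 (37.5%) fell, beside 37.1% higher and 37.2% lower over all genes tested. NUSAP1 (chr15:41332881-41381046), which bundles microtubules near chromosomes, had 386, 389 and 394 CPM in KO libraries, against 214, 225 and 215 CPM in WT libraries (1.79-fold, log2 fold change 0.84, edgeR adjusted p = 3.22e-12). CKAP2 (chr13:52455478-52476627), which promotes microtubule growth, had 344, 350.2 and 339 CPM in KO libraries, against 206, 199 and 203 CPM in WT libraries (1.70-fold, log2 fold change 0.77, edgeR adjusted p = 4.61e-12). For both, the lowest KO library stood more than 1.5 times above the highest WT library. PRC1, the bundler of the central spindle, averaged 254 CPM in KO and 193 CPM in WT, HMMR, a spindle pole protein and hyaluronan receptor, 169.7 CPM in KO and 127 CPM in WT, and DLGAP5, a fibre stabiliser, 256 CPM in KO and 220.2 CPM in WT. TPX2, which activates the kinase AURKA on the spindle, fell to 602 ± 11 CPM in KO against 799 ± 9.36 CPM in WT (SD, n = 3 each), a log2 fold change of -0.41. ANLN, the scaffold anillin of the contractile ring, and ECT2, the exchange factor that starts furrowing, also fell. ANLN averaged 859.6 ± 8.55 CPM in KO and 1080.0 ± 4.96 CPM in WT, a log2 fold change of -0.33, and ECT2 348 CPM in KO and 431 CPM in WT, -0.31. The summed level of the 8 genes was 0.986 of the WT level, and 1.02 with library totals alone.

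The genes that end mitosis split as well. CDC20 (chr1:43358981-43363203), the activator of the anaphase-promoting complex and the target of the checkpoint, had 216, 221 and 216 CPM in KO libraries, against 363, 367 and 364 CPM in WT libraries. It fell to 0.596 of the WT level (log2 fold change -0.75, SE 0.023, edgeR adjusted p = 3.43e-12), and the highest KO library lay far below the lowest WT library. UBE2C, the ubiquitin-conjugating enzyme of the same complex, fell with it, to 154 CPM in KO against 179.6 CPM in WT, a log2 fold change of -0.22. PTTG1, which encodes securin, the inhibitor of separase, averaged 226 ± 6.72 CPM in KO and 157 ± 4.12 CPM in WT, a log2 fold change of 0.53 with a 95% interval of 0.46 to 0.59. ESPL1, which encodes separase itself, averaged 69.8 CPM in KO and 62.6 CPM in WT, a log2 fold change of 0.16. Thus the securin and separase genes rose where CDC20 and UBE2C fell. The near-identical copies PTTG2 and PTTG3P had only 7 and 4 counts over the KO libraries and 3 and 3 over the WT libraries, beside 27281 counts of PTTG1 in KO and 18984 in WT.

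TOP2A, which untangles sister chromatids, had 1167, 1161 and 1139 CPM in KO libraries, against 1105, 1109.8 and 1064 CPM in WT libraries. The groups did not overlap, but the step was small, a log2 fold change of 0.08 (SE 0.025, edgeR adjusted p = 0.0101), and without WT library c it was 0.06 and did not pass (edgeR adjusted p = 0.0631). FOXM1, the transcription factor that switches on many of these genes, had 565, 563 and 592 CPM in KO libraries, against 463, 456 and 487 CPM in WT libraries (log2 fold change 0.29, SE 0.030, edgeR adjusted p = 8.76e-07). FOXM1 overlaps RHNO1 and ITFG2, so part of its reads may be theirs. MKI67, which encodes the proliferation antigen Ki-67, had 975, 1012 and 973 CPM in KO libraries, against 1033, 950.2 and 949.9 CPM in WT libraries. Its groups overlapped, and the 95% interval of its log2 fold change was -0.06 to 0.08. GTSE1, a G2 microtubule tracker, averaged 90.3 CPM in KO and 79.7 CPM in WT, a log2 fold change of 0.18. FOXM1 therefore stood higher in KO where MKI67 showed no detectable difference.

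**Figure D3:**
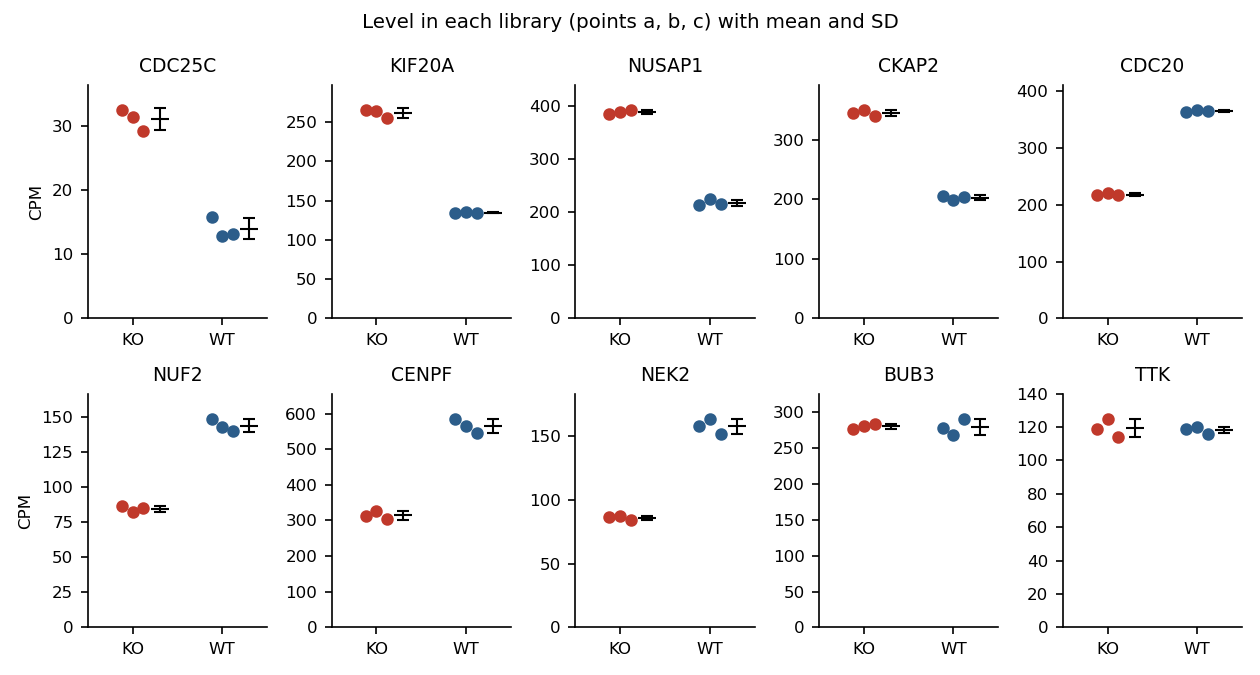
Levels (CPM, linear axes from 0) of the 4 members with the largest rises, the 4 with the largest falls and the 2 with the smallest changes, in KO libraries (red, left) and WT libraries (blue, right); points are libraries a, b and c and bars are mean and SD. The groups are fully apart in all panels other than BUB3 and TTK, which follows from choosing panels by the size of the change. Over all genes tested, 76.8% had groups that did not overlap. CDC20 lies at 216 to 221 CPM in KO against 363 to 367 CPM in WT.

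Members were set beside the genes around them on the chromosome. For each of the 48 genes, the median log2 fold change of all tested genes starting within 5 Mb on either side was taken, members left out. Such windows held 14 to 213 genes. All 5 members on chromosome 5 (CCNB1, KIF20A, CDC25C, PTTG1 and HMMR) were higher in KO, and so were their neighbours, with window medians of 0.27 to 0.78. All 5 members on chromosome 15 (BUB1B, NUSAP1, CCNB2, KIF23 and PRC1) were higher in KO as well, with window medians of 0.37 to 0.55. On chromosome 1, 5 of 6 members were lower in KO, and all 6 window medians were below 0, at -0.96 to -0.05. Beside these counts, 37.1% of all genes tested were higher in KO and 37.2% lower. NEK2 and CENPF lay in windows with medians of -0.93 and -0.96, close to their own log2 fold changes of -0.88 and -0.85. Of the 23 members higher in KO, 15 (65.2%) had a window median above 0, against 62.3% of all genes higher in KO. Of the 17 lower in KO, 13 (76.5%) had one below 0, against 68.1% of all genes lower in KO. Agreement in direction was thus near the background share. Stretches of chromosomes that shift together were known in these data beforehand, so the pattern at the members is not separate evidence of them.

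Across the 48 members, Pearson's r between a member's log2 fold change and its window median was 0.75 and Spearman's rho 0.69, while over 14066 tested genes r was 0.24 and rho 0.35. These are correlations across genes, windows of members on one chromosome can share genes, and genes are not independent replicates. The median absolute difference between a member and its window was 0.18, against 0.40 over all those genes. Over the 9909 of them in the members' level range, that difference was 0.31, r was 0.31 and rho 0.43. The same sign was found for 30 members, 62.5%, against 62.1% of all those genes and 64.2% in the level range. None of these differences was tested. With its sign kept, the median difference of the members from their windows was 0.03. For 32 members the gap was within 0.25, and 5 were at 0.5 or more.

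Those 5 genes were CDC25B, CDC25C, MAD2L1, ANLN and CDC20. CDC20 fell by 0.75 on the log2 scale within a window whose median was -0.06, over 116 neighbours. CDC25B had a log2 fold change of 0.65 against a window median of -0.14. MAD2L1 and ANLN fell in windows with medians of 0.32 and 0.26. CDC25C exceeded a window that was itself higher in KO, with 1.15 against 0.54 over 89 neighbours, and KIF20A likewise stood at 0.96 against 0.53. Whether copy number differs between the clones was not measured, and the part of chromosomal position in the values of the members was not tested.

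**Figure D4:**
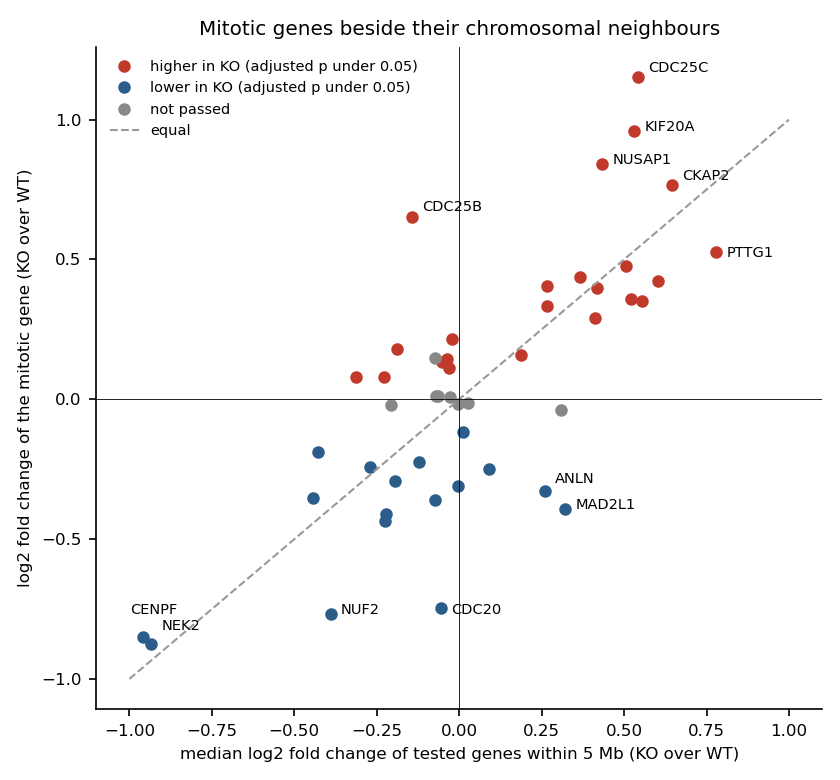
Log2 fold change (KO over WT) of each mitotic gene against the median log2 fold change of the tested genes within 5 Mb on either side; the dashed line marks equality and colours mark the call. NEK2 and CENPF lie near the line at the low end, while CDC20, CDC25B, CDC25C, MAD2L1 and ANLN lie 0.5 or more from it.

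Beyond the 48 genes, a list of 145 other genes of mitosis found in the table held more falls than rises. Of these, 41 (28.3%) were higher in KO, 73 (50.3%) lower and 31 did not pass, with a median log2 fold change of -0.10 and with 110, 75.9%, holding an interval inside 1.5-fold. Over all genes tested 37.1% were higher and 37.2% lower, and in the members' level range 36.4% were higher and 44.6% lower. The largest falls were tightly measured. CENPL, a centromere protein, had 16.6, 16.0 and 15.1 CPM in KO libraries, against 32.8, 29.8 and 33.2 CPM in WT libraries (log2 fold change -1.01, window median -1.06). SKA2, of the SKA complex that helps kinetochores track microtubule ends, had 127, 122 and 126 CPM in KO libraries, against 252, 245 and 245 CPM in WT libraries (log2 fold change -0.98, window median -0.36). CENPM, another centromere protein, had 11.1, 12.4 and 9.63 CPM in KO libraries, against 20.4, 21.3 and 21.6 CPM in WT libraries (log2 fold change -0.93, window median -0.38). All 3, picked as the largest falls, had fully separate groups, as did 76.8% of all genes tested.

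Of the 3 largest rises in that list, 1 was well measured. SPDL1, which recruits dynein to kinetochores, had 83.6, 81.4 and 84.6 CPM in KO libraries, against 37.9, 35.0 and 34 CPM in WT libraries (log2 fold change 1.22, window median 0.67, edgeR adjusted p = 4.69e-11). KIFC1, a minus-end kinesin, had 3.83, 14.2 and 0.556 CPM in KO libraries, against 0.957, 0.690 and 0.830 CPM in WT libraries. Its KO libraries differ widely and overlap WT: the log2 fold change was 2.91 (edgeR adjusted p = 0.00321), it was 1.43 without KO library b, and limma-voom did not call it (adjusted p = 0.121). SKA1, of the same complex as SKA2, had 1.25, 1.88 and 1.83 CPM in KO libraries, against 0.101, 1.48 and 0.293 CPM in WT libraries, a log2 fold change of 1.40 (edgeR adjusted p = 0.048). That call was lost with DESeq2 (adjusted p = 0.194) and without KO library b, KO library c, WT library a or WT library c (edgeR adjusted p = 0.095, 0.0925, 0.134 and 0.153). Without WT library b its log2 fold change was 3.04.

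DNA replication genes had a lower summed level in KO. Of 44 such genes, 10 (22.7%) were higher in KO, 24 (54.5%) lower and 10 did not pass, with a median log2 fold change of -0.15. The shares over all genes tested were 37.1% higher and 37.2% lower, and in the level range of the mitotic genes 36.4% higher and 44.6% lower. Their summed level was 4973, 4994 and 4943 CPM in KO libraries, against 5938, 6035 and 5943 CPM in WT libraries, a ratio of 0.832, and 0.864 with library totals alone. The KO and WT sums did not overlap. Past 1.5-fold were 15 of them, 34.1%, beside 18.8% of the mitotic genes and 41.7% of all genes tested. The difference between the 2 sets was not tested.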

How the data were processed

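Polyadenylated RNA of 6 HuCCT1 libraries was sequenced with a stranded TruSeq kit, per the labels' protocols. The authors deposited whole-number read counts per gene symbol. The submitters' processing notes name build hg38 and, as tools, HISAT2, edgeR, FastQC and Trimmomatic 0.33. How reads were counted, with which annotation and whether by strand, is not given in the sources used here, so genes that overlap others or have copies are uncertain. Another 28 rows bear spreadsheet dates as names and are not named here. Groups came from the genotype labels. In R 4.3.3, edgeR 4.0.16 (filterByExpr, TMM factors of 0.98 to 1.024, quasi-likelihood F test, no covariate) tested KO against WT over 14405 genes, with Benjamini-Hochberg adjustment over all of them, two-sided. The SE is the log2 fold change over the square root of F, and intervals are 95%. The biological coefficient of variation was 0.0652. The steps were tested on simulated data. No pair of libraries agreed within sampling noise (chi-square per degree of freedom 4.18 to 7.6). Levels are CPM of the TMM-scaled library. Positions and promoters are from RefSeq GRCh38.p14, the assembly of hg38, where 14100 tested genes were placed. Of 146 other mitotic genes listed, 145 were found, 6 by an older symbol. The members, the lists and the naming rule were chosen with earlier results of these data known. Values in every library are given for the 4 largest rises, 4 largest falls and 2 smallest changes, the NDC80 and passenger complexes, and CDK1, CCNB1, CDC20, TOP2A, FOXM1 and MKI67, and for the 3 largest rises and falls of the other mitotic genes. Other settings tried were DESeq2 1.42.0, limma-voom (limma 3.58.1), scaling by RLE or by library totals alone, a floor of 1 CPM in 3 libraries or no filter at all, a replicate block, each library left out, an adjusted p of 0.01, a test against 1.5-fold, and windows of 2 and 10 Mb.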

Additional observations from a re-analysis of the deposited data

How the results depend on the processing

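For 45 of the 48 mitotic genes the call and its direction were the same under each alternative run gene by gene; the exceptions were KIF11, KNTC1 and TOP2A, and no direction of a called gene reversed. At an adjusted p of 0.01, KIF11 (0.0381) and TOP2A (0.0101) lose their calls. Tested against 1.5-fold with glmTreat, calls drop to 4354 of all genes, to 5 higher and 4 lower in KO among the mitotic genes, 4 higher and 5 lower among the other genes of mitosis, and 3 higher and 7 lower among replication genes, since that test asks for larger changes. The count of mitotic genes past 1.5-fold was 9 under each alternative that was run for it. The median log2 fold change of the mitotic genes was 0.047 in the main analysis. It was 0.101 with library totals alone and 0.062 with a minimum of 1 CPM in 3 libraries, and lay between 0.036 and 0.086 with each library left out. Library totals alone move all log2 fold changes up by 0.054, and with them CDK1, CCNA2, CENPA and SPC24, none of which passed, turned positive. The median difference of members from their windows, 0.031 at 5 Mb, was 0.033 at 2 Mb and -0.001 at 10 Mb, so it has no stable sign. Calls over all genes with each library left out ran from 10326 to 10607. Letters showed no clear pairing of the libraries. Deviations of same-letter libraries correlated at 0.0577, -0.0195 and 0.00822, and those of different letters at -0.05 to 0.0409. So few libraries cannot show whether a letter stands for a shared culture or day. With the letter as a replicate block, 10599 genes were called and no call of a mitotic gene changed. Depth limits SPC24 and SPC25 most, whose intervals are the widest among genes that did not pass.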

Other observations

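Ratios of counts between partners, which do not depend on library scaling, separated the clones. The ratio of NDC80 to NUF2 was 1.10, 1.16 and 1.05 in KO libraries a, b and c, against 0.513, 0.476 and 0.523 in WT libraries, so NUF2 counts were about equal to NDC80 counts in KO and in excess in WT. For cyclin B1 and the activator of the complex that destroys it, CCNB1 to CDC20, the ratio was 1.86, 1.80 and 1.76 in KO libraries, against 0.817, 0.800 and 0.827 in WT libraries. BUB1B to BUB1 gave 0.720, 0.736 and 0.718 in KO libraries, against 0.436, 0.481 and 0.440 in WT libraries. CCNB1 to CDK1 gave 1.51, 1.60 and 1.51 in KO libraries, against 1.16, 1.09 and 1.20 in WT libraries. These pairs were picked after their values were seen, so no test is given. Over all genes tested, 76.8% had groups that did not overlap. Window medians of the log2 fold change were 0.52 for NDC80 and -0.39 for NUF2, and 0.37 for BUB1B and -0.27 for BUB1. They were 0.27 for CCNB1, -0.06 for CDC20 and -0.21 for CDK1. The part of chromosomal position in these ratios was not tested.

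Of 13 further mitotic kinases and switch genes, 2 (15.4%) were higher in KO, 10 (76.9%) lower and 1 did not pass, with a median log2 fold change of -0.36. Over all genes tested 37.1% were higher and 37.2% lower, and in the members' level range 36.4% were higher and 44.6% lower. AURKA, the spindle pole kinase, averaged 235 CPM in KO and 335 CPM in WT, a log2 fold change of -0.51, and PLK1, which acts throughout mitosis, had a log2 fold change of -0.36. CDC25A, of the same list, had a log2 fold change of -0.68, whereas CDC25B and CDC25C among the 48 were higher in KO. These names were chosen after their values were seen. Among the sublists of the other genes of mitosis, the kinases and switch genes had the largest share of falls. Other sublists were more even. Outer kinetochore genes had 45.5% higher and 45.5% lower, and cytokinesis genes 46.2% higher and 38.5% lower.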
